A study of Caenorhabditis elegans with 9 samples.

Results

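Small nucleolar RNAs (snoRNAs) were examined in RNA recovered by anti-GFP immunoprecipitation of the protein HZL-1 from Caenorhabditis elegans dauer larvae. The set held every gene that the deposited tables class as snoRNA and that reached at least 1 FPKM (fragments corrected for transcript length and for library size) in at least 1 of 7 libraries; the genes were thus chosen by their FPKM. This gave 203 of 346 snoRNA genes, in a table of 46904 genes of all classes. Of the other snoRNA genes, 131 were listed at 0 in all 7 libraries and 12 were above 0 but under 1 FPKM. The FPKM levels below are therefore a description. The snoRNA genes just inside the threshold were F21F12.3, C41C4.16 and C01B10.48, with highest values of 1.13, 1.19 and 1.29 FPKM. Those just outside it were C04A2.16, K02F3.15 and F32B4.12, at 0.94, 0.86 and 0.84 FPKM.

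snoRNAs are short nuclear RNAs that guide chemical modification of other RNAs, above all of ribosomal RNA. Box C/D snoRNAs direct methylation of the ribose by fibrillarin, and box H/ACA snoRNAs direct conversion of uridine to pseudouridine by dyskerin. In animals many snoRNAs are cut out of the introns of protein-coding host genes and trimmed by nuclear exonucleases, and the mature RNAs carry no long poly(A) tail. The tables used here do not say which snoRNA belongs to which class.

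The intestinal set held HZL-1 fused to GFP under the promoter of nhx-2, an intestinal gene, in 3 libraries of genotype daf-2; aak(0); hzl-1 and in 3 libraries of genotype daf-2; hzl-1. Its background was 1 library of GFP alone under the same promoter, in daf-2; aak(0) animals for which no hzl-1 mutation is listed. The endogenous set held HZL-1 fused to GFP under the hzl-1 promoter, with 1 library of daf-2; aak(0); hzl-1 and 1 of daf-2; hzl-1. All animals carried a mutant daf-2, which encodes the insulin/IGF receptor, and aak(0) stands for mutation of aak-1 and aak-2 as well, which encode the catalytic subunits of AMP-activated protein kinase (AMPK). Below, "aak(0)" and "daf-2" name these 2 backgrounds. The hermaphrodites were kept at 25 °C until collection at 96 hours. The transgenes are extrachromosomal arrays (Ex), which not every cell of an animal keeps. Whole animals were fixed with formaldehyde and the RNA was selected for poly(A), so the values measure recovered transcripts and not contact sites. Without input RNA, lower recovery, fewer cells of a type and less RNA per cell cannot be told apart.

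Libraries stood apart in ways that touch every result below. In the intestinal set, HZL-1 libraries held between 7151604 and 17397251 gene reads, and for the GFP library the depth is unknown. Genes of all classes above 0 FPKM numbered 3439 for aak(0) replicate 1, 5135 for daf-2 replicate 1 and 6076 for daf-2 replicate 3, against 11510 to 18666 in the other 4 libraries. The endogenous libraries held 24035823 gene reads (labelled aak(0)) and 58132094 (labelled daf-2), and their reads of hzl-1 went against a label. The hzl-1 gene (C44H9.4) had 11527 reads in the endogenous library labelled aak(0) and 0 in the one labelled daf-2, although both are labelled as carrying the hzl-1 transgene. The aak-2 gene had 92248 reads (3838 CPM, counts scaled to a library's gene reads) in the library labelled aak(0), against 3937 reads (67.7 CPM) in the library labelled daf-2. The aak-1 gene had 638 reads (26.5 CPM) in the library labelled aak(0) and 1150 reads (19.8 CPM) in the one labelled daf-2. Totals of aak-1 and aak-2 do not check the aak(0) label, as set out below. The directions given for that pair therefore rest on labels that the reads of hzl-1 do not bear out.

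The mutated genes were not absent from the intestinal libraries labelled aak(0) either. Reads of aak-2 numbered 153, 113 and 237 in aak(0) replicates 1 to 3, against 282, 309 and 449 in daf-2. Read numbers in this paragraph are not scaled to depth. Gene reads were fewest in aak(0) replicate 1 (7151604) and most in daf-2 replicate 2 (17397251). Scaled to gene reads, aak-2 in aak(0) replicate 1 was above daf-2 replicate 2, so the genotypes overlapped. The FPKM of aak-2 were 0, 2.11 and 3.36 in aak(0) libraries, against 6.13, 5.31 and 7.90 in daf-2. At 8.32 FPKM, aak-2 was higher with GFP, a library that is also labelled aak(0), than in each of the other 6. Reads of aak-1 numbered 0, 88 and 134 in libraries labelled aak(0), against 0, 138 and 331 in daf-2, and the GFP library had 4.43 FPKM. The bait gene hzl-1 had 381, 1624 and 1635 reads in aak(0) libraries, against 617, 1043 and 1064 in daf-2. The labels do not say which part of aak-1 and aak-2 is missing in the mutants, so totals per gene do not check the aak(0) label.

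The 203 snoRNA genes were short and spread over the genome. They measured 65 to 325 bases, with a median of 130. They lay on all 6 chromosomes (WBcel235), with 45 on I, 35 on II, 35 on III, 33 on IV, 38 on V and 17 on X. For all 203, the start and end in the deposited tables equalled those of a snoRNA gene in RefSeq.

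How many snoRNA genes were seen differed most among the aak(0) replicates. In aak(0) replicates 1 to 3, 27, 150 and 171 of the 203 were above 0 FPKM, against 68, 93 and 60 in daf-2 replicates 1 to 3. The mean was 116 ± 77.8 (SD, n = 3) in aak(0) and 73.7 ± 17.2 (SD, n = 3) in daf-2. The GFP library listed 117 above 0. The 2 genotypes overlapped, since both the highest and the lowest of the 6 HZL-1 values belonged to aak(0). All 7 libraries listed 24 of the snoRNA genes above 0, and 125 were above 0 in only 1 to 3 libraries. Replicates 2 and 3 of aak(0) were the sole libraries above 0 for 13 and 18 snoRNA genes, and the GFP library for 8.

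The share of gene reads that fell on the snoRNA genes varied over a wider range in daf-2 than in aak(0). It was 0.216%, 0.191% and 0.158% in aak(0) replicates 1 to 3 (mean 0.188% ± 0.0290, SD, n = 3). It was 0.244%, 0.0422% and 0.318% in daf-2 (mean 0.201% ± 0.143, SD, n = 3). All 3 aak(0) values lay between the lowest and the highest daf-2 value, and replicate 2 stood far below the other daf-2 libraries. The exact 95% binomial intervals of these shares were narrow, for example 0.0412% to 0.0431% for daf-2 replicate 2, and cover counting error only. As a share of the reads that were not ribosomal RNA, the snoRNA genes took 1.11%, 0.921% and 0.748% in aak(0) libraries, against 1.74%, 0.414% and 1.34% in daf-2. Ribosomal RNA took 76.3% to 89.8% of gene reads in these 6 libraries.

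**Figure D1:**
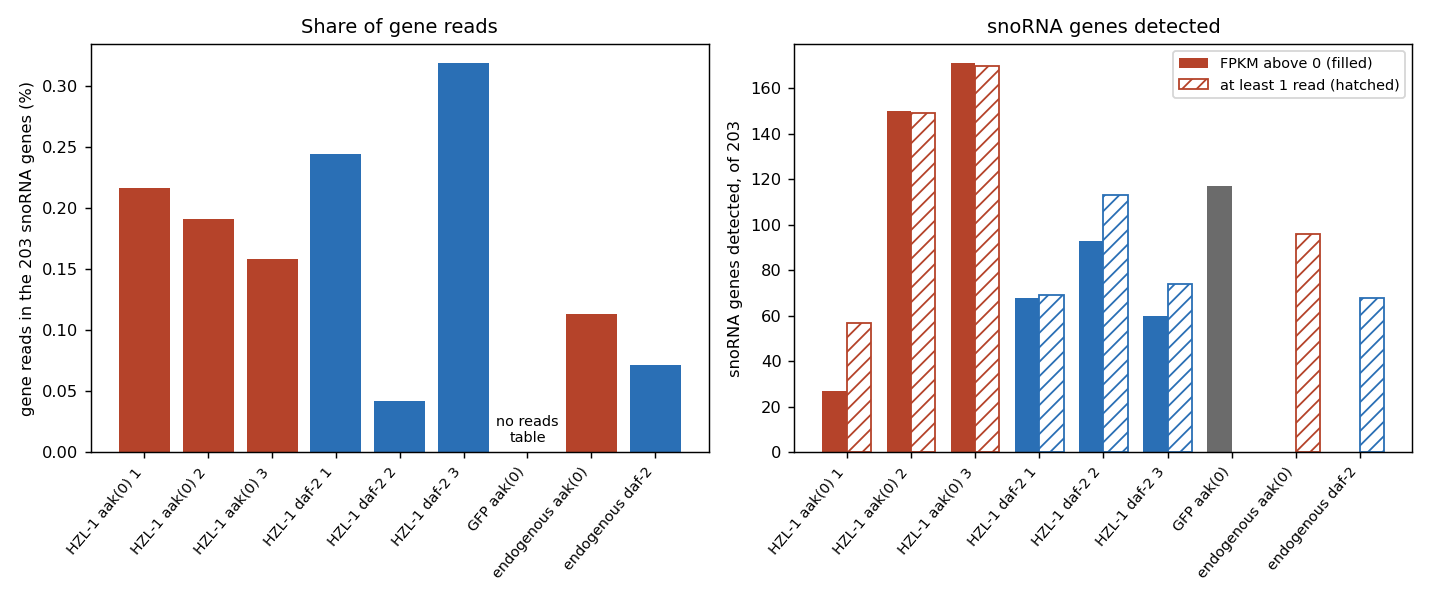
Left, gene reads that fell on the 203 snoRNA genes (percent, 1 bar per library). Right, snoRNA genes detected of 203 (filled bars, FPKM above 0; hatched bars, at least 1 read; no FPKM exist for the endogenous libraries and no reads for GFP). In aak(0) the share lies between 0.158% and 0.216%, while the daf-2 bars run from 0.0422% to 0.318%, and aak(0) replicate 1 has 27 snoRNA genes above 0 FPKM beside 150 and 171 in replicates 2 and 3.

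A few snoRNA genes took much of the signal. The 10 highest held 63.9%, 43.7% and 42.8% of the snoRNA reads in aak(0) replicates 1 to 3, and 51.9%, 45.9% and 59.8% in daf-2. The highest mean CPM over the 6 HZL-1 libraries belonged to F17C11.15 (V:10966698-10966915, 218 bases), which lies within the span of eef-1G, the gene of a translation elongation factor subunit. F17C11.15 had 379, 24.5 and 32.3 CPM in aak(0) libraries, against 14.7, 43.8 and 434 CPM in daf-2. The 2 high values came from aak(0) replicate 1 and daf-2 replicate 3, so the genotypes overlapped fully.

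W08G11.6 (V:16370219-16370355, 137 bases, within W08G11.3) was steadier. It had 319, 120 and 83.2 CPM in aak(0) libraries, against 110, 25.3 and 216 CPM in daf-2. C16A3.11 (III:6374415-6374548, 134 bases) lies within rps-13, a gene of the small ribosomal subunit. Its values were 136, 77.7 and 63.1 CPM in aak(0) libraries, against 57.5, 17.2 and 248 CPM in daf-2. ZK643.9 (III:8937767-8937897, 131 bases), within no protein-coding span, had 41.9, 53.0 and 59.3 CPM in aak(0) libraries, against 95.3, 10.9 and 187 CPM in daf-2. For these 3 snoRNA genes too, the lowest and, except for W08G11.6, the highest library were daf-2. F11A10.9 and F26D10.24 were picked for their CPM after the values were seen. F11A10.9 (120 bases, within rbm-34, an RNA-binding protein gene) had 38.9, 91.6 and 84.4 CPM in aak(0) libraries, against 136, 28.4 and 310 CPM in daf-2. F26D10.24 (124 bases) lies within hsp-1, which encodes a cytosolic heat shock protein of the HSP70 family. It had 91.9, 76.7 and 59.5 CPM in aak(0) libraries, against 63.4, 10.9 and 164 CPM in daf-2.

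**Figure D2:**
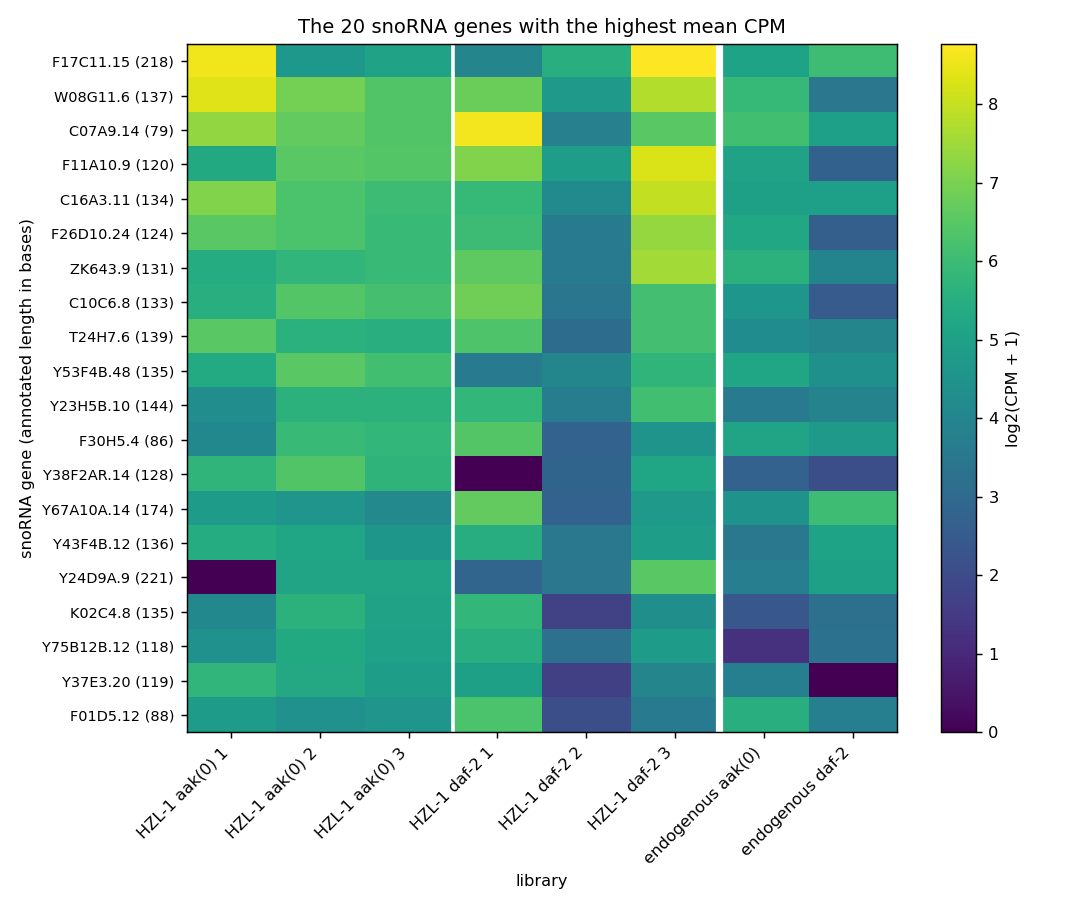
log2(CPM + 1) of the 20 snoRNA genes with the highest mean CPM (rows, with annotated length in bases) in the 6 intestinal HZL-1 libraries and the 2 endogenous ones (columns, by label). Daf-2 replicate 2 is low for most rows (25.3 CPM for W08G11.6, against 110 and 216 CPM in daf-2 replicates 1 and 3), and in the intestinal set 1 dark cell each marks Y38F2AR.14 in daf-2 replicate 1 and Y24D9A.9 in aak(0) replicate 1, both with 0 reads.

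Ranked by mean FPKM over 7 libraries, a different set came first, and 8 of its 10 snoRNA genes were under 80 bases long, against 1 of the 20 highest by CPM. The first was C07A9.14 (III:9717380-9717458, 79 bases, within ncx-7, a gene of a sodium/calcium exchanger). Its FPKM were 0, 35706 and 34203 in aak(0) libraries, 116567, 0 and 0 in daf-2 libraries, and 0 with GFP. Its reads were 1160, 1572 and 1395 in aak(0) libraries, against 5047, 228 and 1064 in daf-2. The 3 HZL-1 libraries with an FPKM of 0 thus held 1160, 228 and 1064 reads of it. Of the other short ones, T03F7.8 (V:11314258-11314332, 75 bases) was listed at 0, 10575 and 9216 FPKM in aak(0) libraries, 10247, 0 and 0 in daf-2 libraries, and 0 with GFP. T27A3.9 (I:6105679-6105754, 76 bases) had 0, 9404 and 6908 FPKM in aak(0) libraries, 8167, 0 and 0 in daf-2 libraries, and 0 with GFP.

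C16D9.11 (70 bases), C04G6.12 (75 bases) and C27H5.9 (69 bases) followed the same pattern, above 0 in aak(0) replicates 2 and 3 and daf-2 replicate 1 only. Their FPKM in those 3 libraries lay between 2423 and 25714. ZK994.7 (67 bases) was above 0 for aak(0) replicate 2, at 10070 FPKM, and daf-2 replicate 1, at 3929 FPKM. C18A3.12 (65 bases) was above 0 in daf-2 replicate 1 alone, at 17131 FPKM, although it had 72, 178 and 160 reads in aak(0) libraries, against 380, 23 and 0 in daf-2. The 2 longer snoRNA genes among the 10 were F30H5.4 (86 bases) and F01D5.12 (88 bases), and both were above 0 in all 7 libraries. F30H5.4 had 2069, 4733 and 4438 FPKM in aak(0) libraries, 4174, 692 and 1698 in daf-2 libraries, and 3173 with GFP. F01D5.12 had 3249, 1872 and 2099 FPKM in aak(0) libraries, 6578, 398 and 811 in daf-2 libraries, and 2030 with GFP.

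The same split held for all 34 snoRNA genes under 80 bases. None of them was above 0 FPKM in aak(0) replicate 1, either of daf-2 replicates 2 and 3, or GFP, and each of the 34 was above 0 in at least 1 of the other 3 libraries. In aak(0) replicate 1, 10 of them had 10 or more reads. In daf-2 replicates 2 and 3, 11 and 10 of them did. Where their FPKM was above 0 it was high for the reads behind it. FPKM divided by the gene reads scaled by annotated length and library size, relative to the same ratio in protein-coding genes, had a median of 31.6 (aak(0) replicate 2), 32.0 (aak(0) replicate 3) and 24.6 (daf-2 replicate 1). From 80 to 99 bases the median ratio over the 6 libraries was 4.55 to 9.91, from 100 to 149 bases 1.24 to 1.41, and from 150 bases 0.833 to 1.03. The deposited FPKM of the shortest snoRNA genes therefore changed by library in a way their reads did not, and whether the GFP library held reads of them is not known. Genes under 80 bases that are not snoRNA genes did not follow this split. Of those with 10 or more reads, 157 of 159 were listed at 0 FPKM in aak(0) replicate 2. The same held for 49 of 52 in aak(0) replicate 3 and 42 of 44 in daf-2 replicate 1. How FPKM were scaled for length is not stated, and its part in the pattern of the short snoRNA genes was not tested.

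**Figure D3:**
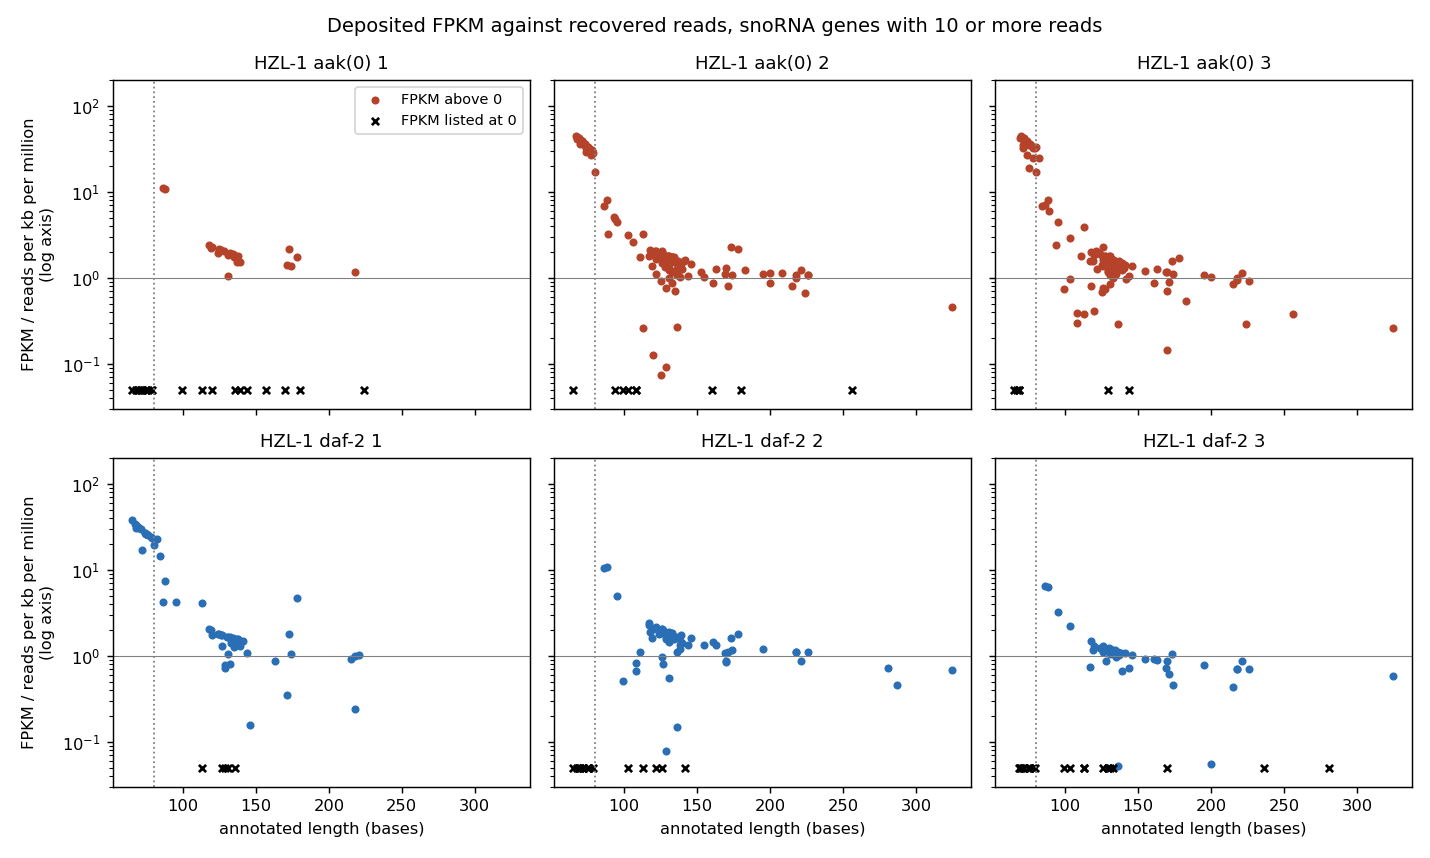
Deposited FPKM divided by recovered reads scaled by length and library size (log axis) against annotated length (bases) for snoRNA genes with 10 or more reads, 1 panel per intestinal HZL-1 library. Crosses near the lower edge mark genes whose FPKM is listed at 0, which have no place on the log axis, and the dotted line marks 80 bases. Left of it, points lie far above 1 in aak(0) replicates 2 and 3 and daf-2 replicate 1, and only crosses lie there in the other 3 libraries.

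The 2 measures also parted in the other direction. Of the 203 snoRNA genes, 26 had no recovered read in any of the 6 HZL-1 libraries although each was listed at 1 FPKM or more somewhere among the 7 FPKM columns, and these 26 had no count in either endogenous library. Their highest FPKM ran from 1.47 to 922, with a median of 14.5, and 22 of the 26 lay within the span of a protein-coding gene. C14C10.8 (V:12596847-12596977, 131 bases, within ril-2), picked after its values were seen, was listed at 173, 83.4 and 137 FPKM in aak(0) libraries, 110, 39.7 and 58.1 in daf-2 libraries, and 22.7 with GFP. Which gene received those reads in the table of reads was not tested.

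Correlations between libraries depended on the measure. Over all 203 snoRNA genes, the Pearson r of log2(FPKM + 1) between aak(0) replicates was 0.356 and 0.394 for the 2 pairs with replicate 1 and 0.787 for replicates 2 and 3. Replicate 1 of aak(0) had r = 0.652 with daf-2 replicate 3 and 0.625 with daf-2 replicate 2. Over the 169 snoRNA genes of 80 bases or more, r was 0.578 and 0.592 for the pairs of aak(0) replicate 1 with replicates 2 and 3, and 0.638, 0.611 and 0.638 for its pairs with daf-2 replicates 1 to 3. On log2(CPM + 1), aak(0) replicate 1 had r = 0.671 and 0.685 with its own replicates, against 0.682, 0.658 and 0.615 with daf-2 replicates 1 to 3, so its closer match to daf-2 replicates 2 and 3 was not seen in the reads. These genes share the libraries' depth and are not independent replicates.

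The comparison of aak(0) with daf-2 asks whether the RNA recovered with HZL-1 depends on AMPK. No snoRNA gene passed the threshold. Of the 203, 171 averaged 1 FPKM or more across the table and were tested, and 0 of the 171 had an adjusted p under 0.05 by limma (linear models on log2(FPKM + 1), Benjamini-Hochberg over 9649 genes). Over all genes tested, 0.0104% passed. At an unadjusted p under 0.05 there were 13 of 171 snoRNA genes by limma (7.6%), where 4.35% of all genes were. By edgeR on the recovered reads there was 1 of 88 (1.14%), where 0.654% of all genes were, and by DESeq2 10 of 177 (5.65%), where 3.12% were. After adjustment edgeR and DESeq2 called no snoRNA gene, and 0.0214% and 0.0205% of all genes. In the authors' deposited table the lowest adjusted p of a snoRNA gene was 0.334. The lowest p by limma was that of Y43F8C.22 (V:19643050-19643187, 138 bases), named after its value was seen. Y43F8C.22 had 350, 45.2 and 77.1 FPKM in aak(0) libraries, against 0, 7.28 and 6.15 FPKM in daf-2 libraries, and 34.6 with GFP. Every aak(0) library was above every daf-2 library, as for 10% of all genes tested. The log2 difference was 4.79 ± 1.12 (SE), with a limma adjusted p of 0.717. Its reads were 194, 97 and 137 in aak(0) libraries, against 0, 13 and 9 in daf-2. The endogenous pair went the other way by label, with 0 reads of Y43F8C.22 under aak(0) and 78 under daf-2.

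The median difference of the snoRNA genes lay above 0 by FPKM, while in reads its size and its direction turned on the scale and on the genes kept. The median log2 difference over the 203 was 0.97, with 151 above 0 and 44 below 0. Over the 171 snoRNA genes tested it was 1.17, against 0.59 over the 9649 genes tested. It was 3.51 over the 34 snoRNA genes under 80 bases and 0.74 over the 169 longer ones. On log2(CPM + 1) of recovered reads, which no length scaling enters, the median over the 203 was 0.21. Over the 106 snoRNA genes with a mean of at least 1 CPM it was 0.41, and over the 11004 genes of all classes past that minimum 0.34. In edgeR's fit of the reads it was -0.13 over the 88 snoRNA genes tested, against 0.18 over all genes tested there. With each library left out it ran from -0.59 (without aak(0) replicate 2, against -0.32) to 0.93 (without daf-2 replicate 1, against 0.45). With every gene that had a read kept, it was 0.69 by edgeR, against 1.70, and 0.61 by DESeq2, against 1.11. On reads per kilobase the median over the 203 was 0.71. Over the 147 snoRNA genes tested on that scale it was 1.03, against 0.40 over all genes tested there. By FPKM the 0.97 became 1.70 without aak(0) replicate 1 and 0.63 without aak(0) replicate 2. The median per library of log2(FPKM + 1) was 0, 5.05 and 4.69 in aak(0) libraries, against 0, 0 and 0 in daf-2 libraries, and 2.76 with GFP, so aak(0) replicates 2 and 3 carried the higher level.

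**Figure D4:**
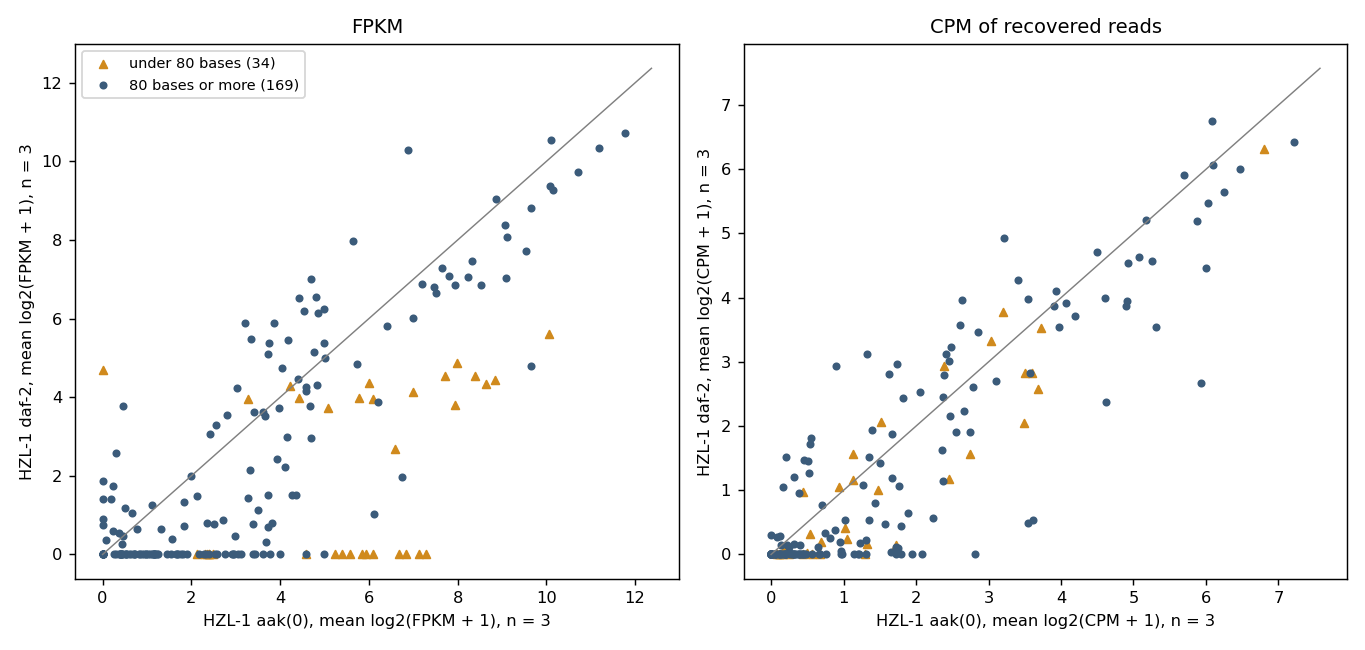
Mean log2 level of each of the 203 snoRNA genes in HZL-1 aak(0) (x axis, n = 3) and HZL-1 daf-2 (y axis, n = 3), by FPKM (left) and by CPM of recovered reads (right), with the line of equal levels. Triangles are the 34 snoRNA genes under 80 bases. By FPKM they lie right of the line with a median difference of 3.51, apart from C18A3.12 at the left edge and a few near the line; by CPM they mix with the longer ones.

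Few snoRNA genes had libraries that did not overlap between genotypes. By FPKM, 5 of the 171 tested (2.92%) were higher in every aak(0) library than in any daf-2 library, while 10% of all genes tested were. By CPM, 7 of 106 (6.6%) were, while 8.1% of all genes were. None was lower in every aak(0) library by either measure, where 0.746% of all genes were by FPKM and 0.763% by CPM. Y43F8C.22 and Y38F2AR.14 did not overlap by both measures. Y38F2AR.14 (IV:2408508-2408635, 128 bases), likewise named after its values were seen, had 825, 1025 and 622 FPKM in aak(0) libraries, against 0, 89.6 and 235 FPKM in daf-2 libraries, and 412 with GFP. Its reads were 372, 1301 and 845 in aak(0) libraries, against 0, 106 and 410 in daf-2, and the limma adjusted p was 0.717. In the endogenous pair the ratio of Y38F2AR.14 under the label aak(0) over daf-2 was 1.71 (exact 95% binomial interval 1.36 to 2.14). No snoRNA gene was at 1 FPKM or more in all 3 libraries of a genotype and at 0 in all 3 of the other.

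One library decided whether any snoRNA gene was called. Without aak(0) replicate 1, limma called 35 of the 171 snoRNA genes (20.5%) higher in aak(0) and 0 lower, where 5.65% of all genes passed. All 35 were at 0 FPKM in the omitted library, and 34 were at 0 in daf-2 replicates 1 and 3 as well. These 3 libraries listed the fewest genes of all classes. Of the 35, 33 were under 1 FPKM in every daf-2 library, so they belong to the set through aak(0) or GFP alone, and 11 were under 80 bases. On the recovered reads, edgeR without the same library called 0 of 120, with 16 (13.3%) at an unadjusted p under 0.05, near the 11.5% of all genes.

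Against GFP, no snoRNA gene passed the threshold as higher with HZL-1. The log2 difference was above 0 for 122 of the 203 in aak(0) over GFP and below 0 for 78. In daf-2 over GFP it was above 0 for 57 and below 0 for 96. Genes of all classes tended to lie below GFP, with a median over all genes tested of -0.79 in aak(0) over GFP and -1.28 in daf-2 over GFP. In each genotype the same 6 of 171 (3.51%) passed as lower. Of all genes tested, 1.07% passed in either direction in aak(0) over GFP and 1.07% in daf-2 over GFP. All 6 reached 1 FPKM in the GFP library alone, so they belong to the set through that library and had to differ. C51F7.4 (V:12303599-12303693, 95 bases, within frm-7) was listed at 0 in all 6 HZL-1 libraries and at 37.7 FPKM with GFP. T23D8.11 (I:9993557-9993657, 101 bases) lies within alg-5, an Argonaute gene. It had 0, 0.91 and 0 FPKM in aak(0) libraries, 0 in each daf-2 library and 72.3 with GFP. The remaining 4 were listed at 0 in all 6 and at 7.38 to 11.9 FPKM with GFP (F16A11.12 and F17C11.24 at 11.9, B0524.10 at 7.38 and WBGene00220224, within jac-1, at 7.60). The limma adjusted p was 0.0134 for T23D8.11 in aak(0) over GFP and 0.0101 in daf-2 over GFP. For the other 5 it was 0.00379 in aak(0) over GFP and 0.00382 in daf-2 over GFP.

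These calls rest on 1 GFP library and on genes without spread among HZL-1 libraries, and when genes at 0 in every HZL-1 library were left out, no snoRNA gene was called. With no filter on low values the order against all genes turned: 10 of 203 (4.93%) passed in aak(0) over GFP, where 9.68% of all genes did, and 11 (5.42%) in daf-2 over GFP, where 11% did. Without aak(0) replicate 3, 11 of 171 (6.43%) passed in each contrast, where 1.64% of all genes did in aak(0) over GFP and 1.69% in daf-2 over GFP. Without aak(0) replicate 1, 15 (8.77%) passed in daf-2 over GFP, where 4.49% did. By recovered reads, 3 of the 6 (C51F7.4, T23D8.11 and WBGene00220224) were at 0 in all 6 HZL-1 libraries and the other 3 were not. F16A11.12 had 16 reads in aak(0) replicate 3, F17C11.24 had 8 there, and B0524.10 had 5 and 3 in aak(0) replicates 2 and 3. The genotype of the hzl-1 gene and the tag differ together in both contrasts, and the AMPK genotype differs too in daf-2 over GFP. The median log2 difference over the 203 was 0.42 for aak(0) over GFP and 0.00 for daf-2 over GFP. Over the 171 tested it was 0.35 and -0.22, against -0.79 and -1.28 over all genes tested. Over the 169 snoRNA genes of 80 bases or more it was 0.10 in aak(0) over GFP and -0.47 in daf-2 over GFP. Both contrasts share the GFP library. Without aak(0) replicate 1, 19 of 171 (11.1%) passed in either direction in aak(0) over GFP, where 1.35% of all genes did. Of these, 13 were above GFP, where 23 of all 9649 genes tested were. All 13 were at 0 FPKM with GFP and in the omitted library, and 10 of them were under 80 bases. These 13 belong to the set through HZL-1 libraries and could not lie below GFP.

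Most of the snoRNA genes lay within protein-coding genes. The span of at least 1 protein-coding gene held 135 of the 203, and 68 lay within none. The tables used here give neither strand nor exons, so whether a snoRNA lies in an intron, and on the host's strand, is not stated. Of the host genes, 15 held 2 or more snoRNA genes. Cytosolic ribosomal protein genes made up 11 of the hosts and held 16 snoRNA genes. The median mean CPM was 1.71 for snoRNA genes within a host and 0.702 for the others, at a median length of 130 bases for both.

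Levels of snoRNA genes that share a host were unequal in some hosts and close in another. The examples that follow were picked for their host after the values were seen. The span of nol-56, the gene of a core protein of box C/D particles, held 4 snoRNA genes on chromosome V between 10350780 and 10352836. K07C5.10 had 0, 17.9 and 40.3 FPKM in aak(0) libraries, against 142, 6.04 and 209 in daf-2. K07C5.18 had 0, 69.3 and 55.8 FPKM in aak(0) libraries, against 0 in each daf-2 library. K07C5.11 had 0, 69.8 and 77.9 FPKM in aak(0) libraries, against 76.1, 5.44 and 0 in daf-2. K07C5.12 had 0, 28.9 and 37.8 FPKM in aak(0) libraries, against 0 in each daf-2 library. Within 1 host, K07C5.10 was thus highest in daf-2 replicates 1 and 3, where K07C5.18 and K07C5.12 were listed at 0. The nol-56 gene itself had 0, 13.6 and 16.7 FPKM in aak(0) libraries, against 2.08, 8.17 and 11.8 in daf-2. R151.11, R151.12 and R151.13 all lie within rpl-6, a gene of the large ribosomal subunit, and within exos-9, a gene of the exosome, whose spans overlap. R151.11 had 308, 196 and 187 FPKM in aak(0) libraries, against 321, 41.6 and 179 in daf-2, while R151.12 and R151.13 were at 0 in aak(0) replicate 1 and in every daf-2 library. In contrast, Y37E3.21 and Y37E3.22, both within Y37E3.8, had nearly equal FPKM. Y37E3.21 had 0, 101 and 83.4 FPKM in aak(0) libraries, against 0, 22.2 and 0 in daf-2, and Y37E3.22 had 0, 86.6 and 82.0 FPKM in aak(0) libraries, against 0, 22.5 and 0 in daf-2. In reads they differed in aak(0) replicate 1, with 111 reads of Y37E3.21 and 0 of Y37E3.22. None of these had an adjusted p under 0.05 by limma.

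Reads of snoRNA genes were recovered in part where the host had none. In aak(0) replicate 1, 13 of the 29 snoRNA genes with a host and with 10 or more reads had a host at 0 reads, against 1 of 88 and 0 of 89 in replicates 2 and 3. In daf-2 replicates 1 to 3 these numbers were 12 of 42, 2 of 52 and 16 of 52. The libraries with many such cases were again the 3 with the fewest genes.

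The endogenous pair was compared without a test, since there is 1 library per genotype. The 203 snoRNA genes took 0.113% of gene reads in the library labelled aak(0) (exact 95% binomial interval 0.112% to 0.114%) and 0.0712% in the library labelled daf-2 (0.0705% to 0.0719%). Of the reads that were not ribosomal RNA they took 0.161% in the library labelled aak(0) and 0.240% in the one labelled daf-2, so the order turned. Ribosomal RNA took 30.0% of gene reads in the library labelled aak(0) and 70.4% in the one labelled daf-2. A read was found for 96 snoRNA genes in the library labelled aak(0) and for 68 in the one labelled daf-2. Of these, 52 were found in both, 44 only in the library labelled aak(0) and 16 only in the one labelled daf-2, and 91 of the 203 had no count in either.

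Over the 95 snoRNA genes with a mean of at least 1 CPM, the median log2 difference of (CPM + 1) was 0.89, against 1.92 over the 18987 genes past the same minimum. On CPM over reads that are not ribosomal RNA it was -0.14, against 1.45. Of the 95, 47 (49.5%) were at least 2-fold higher in the library labelled aak(0), where 59.2% of all genes were, and 18 (18.9%) at least 2-fold lower, where 15.1% were. Without ribosomal RNA in the totals, 42 of 98 (42.9%) were at least 2-fold higher, where 51.6% of all genes were, and 30 (30.6%) lower, where 29.9% were.

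The 10 snoRNA genes with the highest mean CPM in the endogenous pair went both ways. F17C11.15 had 32.8 CPM in the library labelled aak(0) and 65.5 CPM in the one labelled daf-2, a ratio of 0.501 (exact 95% binomial interval 0.464 to 0.541). Y67A10A.14 (IV:14326948-14327121) had 21.7 CPM in the library labelled aak(0) and 64.3 CPM in the one labelled daf-2, a ratio of 0.338 (0.307 to 0.370). K07C11.12 (V:8222779-8222973), within air-1, the Aurora A kinase gene, had a ratio of 0.538 (0.495 to 0.585). These 3 were lower in the library labelled aak(0).

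W08G11.6 was higher there, with 57.9 CPM where the label is aak(0) and 10.1 CPM where it is daf-2, a ratio of 5.70 (5.18 to 6.29). So was C07A9.14, with 68.3 CPM under the label aak(0) and 29.8 CPM under daf-2, a ratio of 2.29 (2.14 to 2.45). F01D5.12 had a ratio of 3.54 (3.22 to 3.89) and ZK643.9 one of 3.41 (3.12 to 3.73). F30H5.4 and F25H2.15 (I:10565266-10565443) had ratios of 1.33 (1.22 to 1.45) and 1.28 (1.19 to 1.38). C16A3.11 had 30.5 CPM under the label aak(0) and 29.5 CPM under daf-2, and the interval of its ratio, 0.947 to 1.13, included 1. The intervals cover counting error only. Of the 20 highest snoRNA genes by mean CPM in the endogenous pair, 14 (70%) were also among the 20 highest in the intestinal set, and equally 14 of 20 (70%) the other way.

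**Figure D5:**
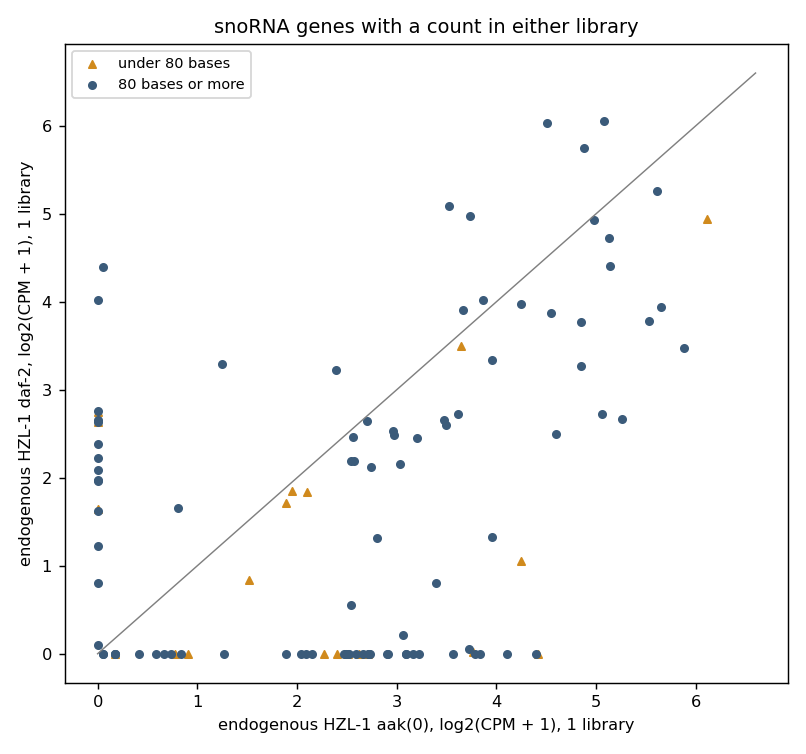
log2(CPM + 1) of the 112 snoRNA genes with a count in the endogenous library labelled aak(0) (x axis) or in the one labelled daf-2 (y axis), with the line of equal levels; triangles are under 80 bases. Points along the lower edge are the 44 with a count only under the label aak(0), and points along the left edge the 16 with a count only under daf-2.

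Genes of the proteins that build or trim snoRNAs were followed beside them, as lists. Of 12 tested genes of snoRNA particles and the nucleolus, 0 passed the threshold by limma in aak(0) over daf-2, in aak(0) over GFP or in daf-2 over GFP, and the median log2 difference of aak(0) over daf-2 was 0.52, close to the 0.59 of all genes tested. The fibrillarin gene fib-1 had 17.7, 13.6 and 11.9 FPKM in aak(0) libraries, 0.05, 10.4 and 12.1 in daf-2 libraries, and 21.5 with GFP. The nol-58 gene, another core protein of box C/D particles, had 3.24, 16.2 and 15.0 FPKM in aak(0) libraries, 12.9, 8.64 and 9.82 in daf-2 libraries, and 22.0 with GFP. The genotypes overlapped for both. K01G5.5, the sequence name of the dyskerin gene of box H/ACA particles, had 47.0, 19.1 and 21.8 FPKM in aak(0) libraries, and between 8.89 and 17.2 in daf-2 libraries. By FPKM K01G5.5 did not overlap between genotypes, where 10% of all genes tested were higher in every aak(0) library. Its limma adjusted p was 0.717. Its FPKM with GFP was above that of aak(0) replicates 2 and 3. Scaled to gene reads per library, its reads overlapped. The 615 reads in daf-2 replicate 3 were a larger share than the 660 and 834 in aak(0) replicates 2 and 3.

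Of 11 tested genes of the nuclear exosome and its cofactors, which trim and degrade nuclear RNAs, 0 passed in any of the 3 contrasts, and the median of aak(0) over daf-2 was 0.19. The nuclease gene dis-3 had 0, 5.90 and 5.02 FPKM in aak(0) libraries, 5.74, 0.74 and 1.39 in daf-2 libraries, and 6.05 with GFP. The helicase gene mtr-4 had 0, 6.82 and 5.49 FPKM in aak(0) libraries, 7.49, 1.25 and 2.73 in daf-2 libraries, and 9.07 with GFP. Markers of the intestine (5 tested) and of muscle, pharynx, neurons, hypodermis and germ line (10 tested) also had 0 genes past the threshold in each contrast. The intestinal vha-6 had 4.37, 12.1 and 9.79 FPKM in aak(0) libraries, 15.9, 3.34 and 8.20 in daf-2 libraries, and 9.45 with GFP. The muscle myosin gene unc-54 had 121, 14.7 and 14.4 FPKM in aak(0) libraries, 11.6, 41.8 and 39.3 in daf-2 libraries, and 26.1 with GFP, so RNA of tissues other than the intestine was present in all 7 libraries.

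No single marker of another tissue passed the threshold. By FPKM, their summed level was higher in every aak(0) library than in any daf-2 library. The sums were not made on reads. The snoRNA median by FPKM was also higher in aak(0), but its values per library overlapped. The summed FPKM of the 12 markers of tissues other than the intestine was 263, 180 and 177 in aak(0) libraries, 117, 106 and 106 in daf-2 libraries, and 238 with GFP. In aak(0) replicate 1 the largest part was unc-54 (121 FPKM), and in replicates 2 and 3 it was gld-1 (61.3 and 57.0 FPKM). All 10 markers tested had a log2 difference of aak(0) over daf-2 above 0, with a median of 0.42, against 0.59 over all genes tested. Among them glp-1, the germ-line Notch receptor gene, had 5.58, 7.99 and 7.43 FPKM in aak(0) libraries, 2.34, 1.31 and 0 in daf-2 libraries, and 9.07 with GFP. The germ-granule gene pgl-1 had 18.2, 12.4 and 13.2 FPKM in aak(0) libraries, 10.2, 4.22 and 4.06 in daf-2 libraries, and 13.2 with GFP. Neither gene overlapped between genotypes by FPKM, where 10% of all genes tested were higher in every aak(0) library. By reads pgl-1 overlapped, with 410, 693 and 801 in aak(0) libraries, against 632, 220 and 246 in daf-2. Reads of glp-1 were 233, 841 and 822 in aak(0) libraries, against 200, 140 and 0 in daf-2. The germ-line gene gld-1, of an RNA-binding protein, had 0.66, 61.3 and 57.0 FPKM in aak(0) libraries, 14.6, 3.92 and 0.05 in daf-2 libraries, and 93.4 with GFP, and overlapped. The hypodermal markers dpy-7 and col-19 were under 1 FPKM in all 6 HZL-1 libraries and at 0 in every daf-2 library. The other hypodermal marker, rol-6, was above 0 in every library and overlapped between genotypes. It had 17.1, 24.8 and 26.1 FPKM in aak(0) libraries, 17.9, 2.03 and 5.89 in daf-2 libraries, and 19.3 with GFP. The 6 intestinal markers found summed to 13.3, 39.9 and 37.5 FPKM in aak(0) libraries, 34.3, 26.6 and 48.1 in daf-2 libraries, and 42.5 with GFP. The part of other tissues in the snoRNA difference was not tested.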

How the data were processed

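RNA was measured by sequencing in 9 libraries. The submitters' processing notes name STAR 2.7.1a, Trimmomatic 0.35, DESeq2 1.30.1, RSEM and the build WBcel235, without settings. The authors deposited FPKM for 7 libraries, and a table with a signal per gene for 6 of them together with log2 fold changes, p-values and adjusted p-values of their own. For the endogenous pair they deposited raw counts. Entries naming no gene (62.1% of its reads in aak(0), 29.6% in daf-2) were left out.

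Each signal value was, within its library, a multiple of the smallest one (100% within a tolerance of 0.01), which gave whole reads. limma 3.58.1 (R 4.3.3) was fitted to log2(FPKM + 1) of the 9649 genes averaging 1 FPKM or more, with 1 mean per group and a Benjamini-Hochberg adjusted p under 0.05 as threshold. edgeR 4.0.16 (quasi-likelihood) and DESeq2 1.42.0 were run on the recovered reads. All 3 were run on simulated counts with a fixed spread and without genes of few reads, and limma there on log2(CPM + 1). Many snoRNA genes are at 0 in several libraries, so the simulation does not show how well differences among them are found. The endogenous pair was compared as CPM. A floor of 3 reads is 0.172 to 0.419 CPM in the intestinal HZL-1 libraries and 0.125 and 0.0516 CPM in the endogenous ones. Replicate numbers did not pair the samples (correlations of deviations -0.112, -0.0458 and -0.101). Nothing in the labels says that replicates were separate cultures, so p-values cover only the spread among these libraries, and that spread may be technical.

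The snoRNA genes, lists and tests were chosen with earlier results of these data known. Named were all snoRNA genes past the threshold, the 10 highest by mean FPKM and by mean endogenous CPM, and 3 on each side of the 1 FPKM threshold; those added after their values were seen are marked. Strand use in counting is not stated, so reads of a snoRNA gene and an overlapping host cannot be fully separated. No snoRNA sequences were used here.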

Additional observations from a re-analysis of the deposited data

Results flagged for a closer look

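Reads also fell on snoRNA genes outside the 203. Of those under 1 FPKM in all 7 libraries, 14 had 10 or more recovered reads in at least 1 intestinal HZL-1 library, above the limit of 3 reads that a count of 0 allows. The highest were ZK265.10 (62 bases) with 233 reads in daf-2 replicate 1, Y11D7A.22 (100 bases) with 206 reads in daf-2 replicate 1, Y47D3B.25 (245 bases) with 160 reads in aak(0) replicate 1 and R10A10.3 (198 bases) with 110 reads in daf-2 replicate 3. All 4 were listed at 0 FPKM in all 7 libraries. The reason was not tested.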

How the results depend on the processing

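In aak(0) over daf-2 the count of called snoRNA genes stayed at 0 under every alternative run except that it ranged from 0 to 35 when each library was left out in turn (35 without aak(0) replicate 1). The 6 called in aak(0) over GFP became 10 with no filter, where the share of all genes was the higher one (9.68%), 0 with a minimum mean of 5 FPKM, quantile normalization, no variance trend, the 3 libraries with the fewest genes left out or genes at 0 in every HZL-1 library left out, and 5 to 19 with each library left out. In daf-2 over GFP the 6 became 11 with no filter (11% of all genes), 0 under the same 5 settings, and 5 to 15 with each library left out. Without aak(0) replicate 1 they were 19 in aak(0) over GFP (13 higher and 6 lower) and 15 in daf-2 over GFP. Without aak(0) replicate 3 they were 11 in both. With the replicate number as a block, 0 were called in all 3 contrasts; the numbers do not pair the samples, and the block leaves fewer residual degrees of freedom.

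Over the 203, the median of aak(0) over daf-2 was 0.63 to 1.70 with each library left out. It was 0.49 after quantile normalization, 0.65 after median-of-ratios scaling, 0.38 with a pseudocount of 10 and 1.63 with a pseudocount of 0.1. It was 2.11 when the 3 libraries that list the fewest genes were dropped, and over snoRNA genes under 80 bases it was 3.51. Over the 171 tested it was 1.17, with 0.83 after quantile normalization and 1.04 after median-of-ratios scaling. The median of all genes tested was 0.59, -0.02 and 0.18 in the same order. On log2(CPM + 1) of reads with TMM factors the snoRNA median was 0.17, and 0.00 (without aak(0) replicate 3) to 0.39 (without aak(0) replicate 1) with each library left out. In aak(0) over GFP the median of 0.42 was 0.84 without aak(0) replicate 1, 0.00 without either of replicates 2 and 3, 0.15 and 0.63 with pseudocounts of 10 and 0.1, 0.22 scaled without ribosomal RNA, and 5.89 under 80 bases. In daf-2 over GFP the median of 0.00 was 0.57 after quantile normalization and -0.60 when those 3 libraries were dropped. The endogenous median of 0.89 turned to -0.14 without ribosomal RNA and to -0.16 over protein-coding reads. It was 0.73 with TMM factors, 1.13 with a pseudocount of 0.1, 0.75 with no minimum and 0.82 with a minimum mean of 5 CPM. Counted by reads, aak(0) replicate 1 detected 57 snoRNA genes in place of 27. The fits without rRNA genes, on reads per kilobase, with edgeR blocked or leaving out libraries, with genes above 0 in HZL-1 libraries, and by length were added after seeing the data. Of the 203, 32 averaged under 1 FPKM and did not enter the limma tests; the part of depth was not tested.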
